A study of Mus musculus with 6 samples.

Results

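The genes described here are the alpha, beta and gamma tubulins of epididymal white fat, a visceral depot of the mouse, measured after a fast and in fed animals. They were found by symbol: every row whose name begins Tuba, Tubb or Tubg followed by a digit. That rule took 6 of the 3162 genes in the deposited files, namely the alpha-tubulin genes Tuba8, Tuba1a and Tuba1b, the beta-tubulin genes Tubb4b and Tubb6, and the gamma-tubulin gene Tubg1. The annotation holds 17 protein-coding genes with such names, and the other 11, Tuba1c, Tuba4a and Tubb5 among them, were not analysed here. RNA was sequenced from 3 mice starved for 24 h and from 3 mice fed normally. All were wild-type C57BL/6J males aged 16 weeks, and no transgene or drug was involved.

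The groups did not overlap in 93.4% of the 3162 genes, so these genes appear to have been chosen for a difference between fasted and fed libraries, although no source used here gives the criterion. The tubulins were also taken up with their fasted against fed contrast known, so their differences are given below as a description, with no p-value, and no inference is drawn from their number. Values are FPKM as the authors deposited them, a count of sequenced fragments adjusted for transcript length and for library size. Because FPKM is scaled by length, levels of different genes can be set side by side. Depth per library is unknown, and the summed FPKM over the genes held was 180058 to 188061 in fasted libraries and 190382 to 209201 in fed libraries.

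Microtubules are hollow polymers of alpha- and beta-tubulin dimers, and gamma-tubulin is the template from which they are nucleated. Mammals carry several alpha and beta genes, called isotypes, whose proteins differ mostly in the acidic tail at the C-terminus. In most alpha isotypes that tail ends in a tyrosine, which is removed and put back by dedicated enzymes. Cells also adjust tubulin mRNA to the pool of unpolymerised tubulin, because an excess of free dimers triggers decay of tubulin mRNAs as they are translated. In fat cells microtubules carry vesicles, among them those with the insulin-regulated glucose transporter, and they contact lipid droplets.

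The ends of the coding sequences show how the alpha isotype that was higher in fasted tissue differs from a beta isotype whose groups overlapped. Each line gives the last 48 bases of the coding sequence in GENCODE M21, stop codon included, 5′ to 3′, with the last codon before the stop in capitals.
Tuba8: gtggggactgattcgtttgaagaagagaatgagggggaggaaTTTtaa
Tubb4b: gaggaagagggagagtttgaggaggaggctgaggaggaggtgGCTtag
The last codon of Tuba8 was TTT, a phenylalanine codon, whereas Tuba1b ended in TAC, which codes for the tyrosine that is removed and put back. Tubb4b ended in GCT. Over the whole coding sequence, Tuba1a and Tuba1b were 98.3% identical in bases, while Tuba8 was 79.1% identical to Tuba1a and 79.6% identical to Tuba1b. The beta genes Tubb4b and Tubb6 were 80.8% identical to each other. Alpha and beta members were 55.6% to 57.3% identical, and Tubg1 was 52.2% to 54.4% identical to the alpha and beta members.

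This likeness bears on the measurements, because reads from a stretch that several genes share cannot be placed by sequence alone. Of all stretches of 50 bases in the transcript, 14.7% of those of Tuba8, 75.5% of those of Tuba1a and 83.1% of those of Tuba1b also occurred in transcripts of other genes. For Tuba1a and Tuba1b, 43.4% and 44.9% were shared with each other, and Tuba1c, not analysed here, shared 46.9% and 59.3%. The shared stretches of Tuba8 lay almost wholly in Gm15856, a gene on the opposite strand (14.5%), and none (0) was found in Tuba1a or Tuba1b. Tubb4b shared 55.5%, mainly with its pseudogene Tubb4b-ps1 (43.6%), Tubg1 shared 14.1%, mainly with Tubg2 (13.9%), and Tubb6 shared 0%. The split of reads between Tuba1a and Tuba1b is therefore uncertain, and their sum is given as well.

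**Figure D1:**
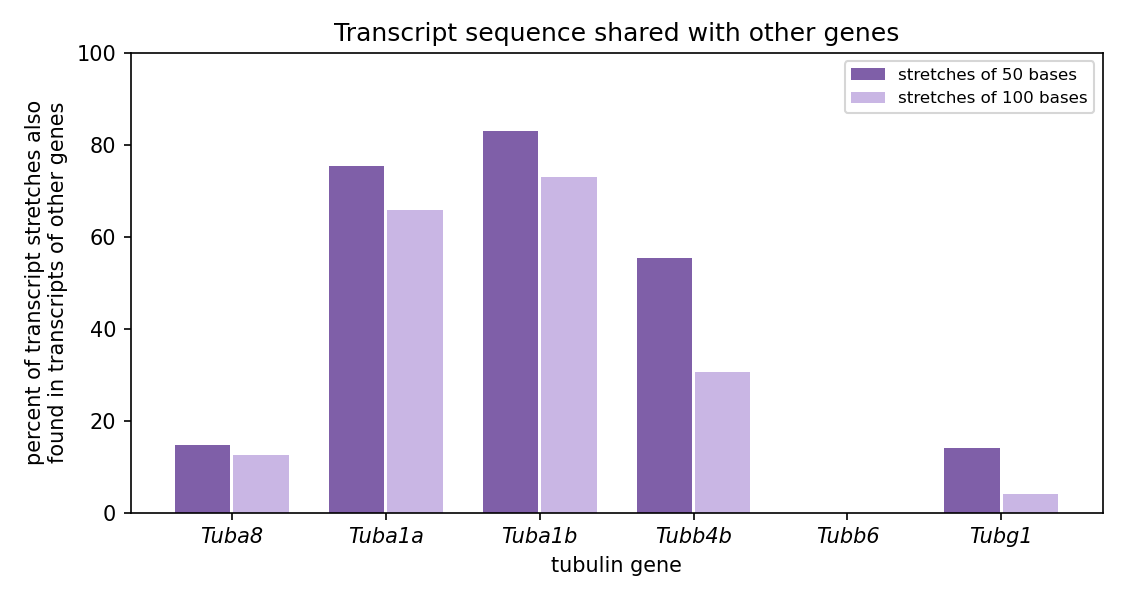
Percent of all 50-base and 100-base stretches of each tubulin transcript that occur exactly, on either strand, in an annotated transcript of another gene. Tuba1a (75.5% and 65.8%) and Tuba1b (83.1% and 73%) are mostly shared, Tuba8 (14.7% and 12.5%) mostly is not, and Tubb6 shares none.

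Tuba8 was the 1 tubulin that was higher in fasted tissue. It is an alpha isotype known from heart, skeletal muscle and testis. The gene (ENSMUSG00000030137) has 5 exons and spans chromosome 6, bases 121210696 to 121226854, plus strand (GRCm38). It had 6.54, 8.84 and 1.24 FPKM in fasted replicates 1, 2 and 3, against 0.60, 0.28 and 0.19 FPKM in the fed replicates. All fasted libraries lay above all fed libraries, but fasted replicate 3 was far below the other fasted libraries, with a 7.13-fold range within that group. The group means were 5.54 ± 3.90 FPKM in fasted and 0.357 ± 0.215 FPKM in fed tissue (SD, n = 3 each), a ratio of 15.5. On the scale of log2(FPKM + 1), which understates the change of a gene this low, the difference was 2.03 ± 0.50 (limma estimate, SE), the largest rises being ranked first and this one 33rd of the 1240 positive estimates. With a pseudocount of 0.1 it was 3.34, and it was 1.61 without fasted replicate 2 and 2.68 without fasted replicate 3.

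Tuba1a and Tuba1b, the more abundant of the alpha isotypes held, were much lower in fasted tissue. They are neighbours on chromosome 15, both on the minus strand, with Tuba1a (ENSMUSG00000072235) at 98949837 to 98953703 and Tuba1b (ENSMUSG00000023004) at 98931425 to 98934565 (GRCm38). Tuba1a had 101, 130.0 and 78.5 FPKM in the fasted libraries, against 494, 1464 and 584 FPKM in the fed libraries. No fasted value reached the lowest fed value, and fed replicate 2 stood apart, at 2.96 times the lowest fed library. The means were 103 ± 25.8 FPKM in fasted and 848 ± 536 FPKM in fed tissue (SD, n = 3 each), a log2 difference of -2.88 ± 0.39. It was the 15th of 1759 negative estimates, and -2.40 without fed replicate 2.

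Tuba1b was the most abundant tubulin held in either group, with 239, 231 and 188 FPKM in the fasted libraries and 860.3, 1142 and 969 FPKM in the fed libraries. Both groups were tight, the highest value being 1.27 times the lowest in fasted tissue and 1.33 times in fed tissue. The means were 219 ± 27.2 FPKM in fasted and 990.3 ± 142 FPKM in fed tissue, and the log2 difference was -2.17 ± 0.16. Tuba1a and Tuba1b summed, which does not depend on how reads were split between them, came to 340.02, 361 and 267 FPKM in fasted libraries and 1355, 2606 and 1553 FPKM in fed libraries. The fasted mean of the sum was 0.176 of the fed mean. The sum still depends on how reads were split with Tuba1c and other genes that share these stretches.

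**Figure D2:**
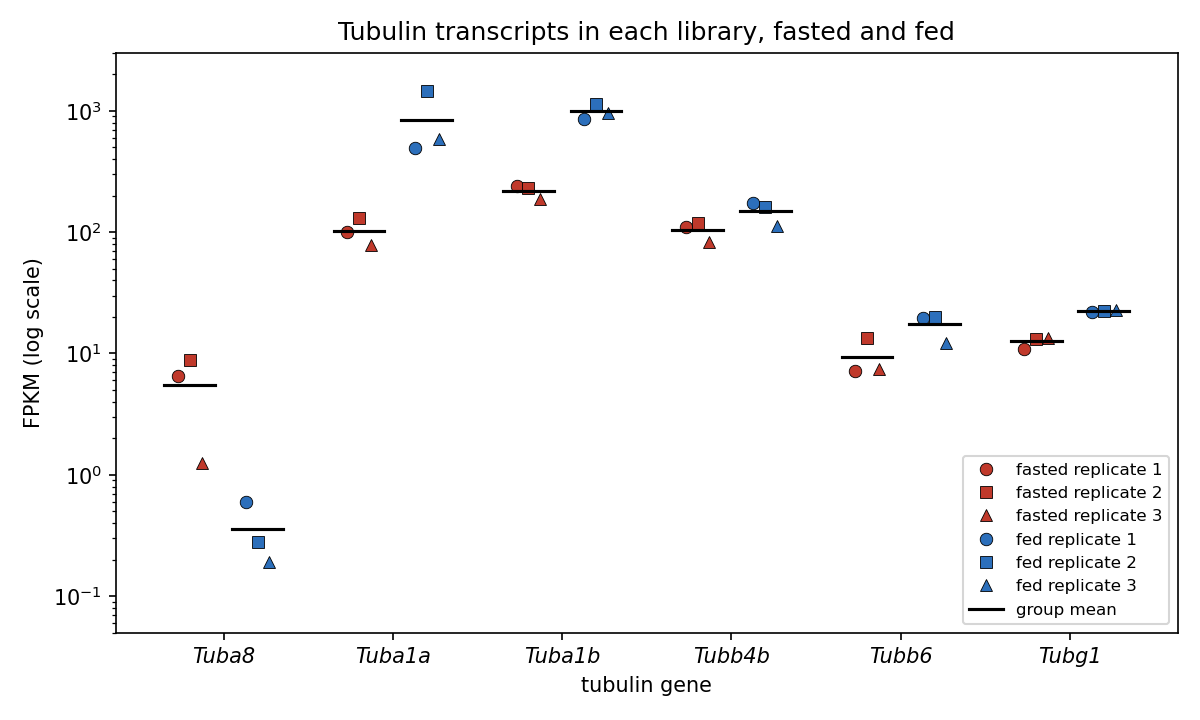
FPKM (log axis) of the 6 tubulin genes in each library, fasted in red to the left and fed in blue to the right. Symbols mark the replicate number, which pairs no fasted with any fed mouse, and bars mark group means. Tuba8 is higher in all fasted libraries, Tuba1a, Tuba1b and Tubg1 are lower in all of them, and the groups of Tubb4b and Tubb6 overlap.

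The beta genes differed far less. Tubb4b, a beta isotype found in nearly all cells and in cilia, spans chromosome 2, bases 25222160 to 25224702, minus strand (ENSMUSG00000036752, GRCm38). It had 111, 119.65 and 82.3 FPKM in the fasted libraries, against 174, 160.1 and 111 FPKM in the fed libraries. The groups overlapped, since fed replicate 3 lay below fasted replicate 2. Means were 104 ± 19.5 FPKM in fasted and 149 ± 33.0 FPKM in fed tissue, a log2 difference of -0.50 ± 0.21. That is close to the median of -0.34 over the 2999 genes tested. Median-ratio scaling moved the estimate to -0.30 and the median of all genes to -0.15, and quantile scaling moved them to -0.26 and -0.21.

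Tubb6 (ENSMUSG00000001473), a divergent beta isotype on chromosome 18, was the lower beta gene in level. It had 7.20, 13.4 and 7.46 FPKM in the fasted libraries and 19.7, 20.1 and 12.3 FPKM in the fed libraries. Here too the groups overlapped, with fasted replicate 2 above fed replicate 3. The means were 9.36 ± 3.51 FPKM in fasted and 17.4 ± 4.40 FPKM in fed tissue, and the log2 difference was -0.85 ± 0.27.

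Tubg1 encodes gamma-tubulin, the nucleating template, and its 11 exons span chromosome 11, bases 101119938 to 101126419, plus strand (ENSMUSG00000035198, GRCm38). Its values were 10.9, 13.2 and 13.5 FPKM in the fasted libraries and 22.2, 22.3 and 22.7 FPKM in the fed libraries. It was the steadiest member, with a fed range of 1.02-fold, and the groups did not overlap. Means were 12.6 ± 1.41 FPKM in fasted and 22.4 ± 0.277 FPKM in fed tissue, a log2 difference of -0.79 ± 0.13. Delta-tubulin, Tubd1, which the naming rule does not take, had 3.40, 3.10 and 3.61 FPKM in fasted libraries, against 4.37, 5.74 and 5.67 FPKM in fed libraries.

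All 6 members passed a mean of 1 FPKM over the 6 libraries, the minimum for testing. Tuba8 passed it only through its fasted libraries, since each of its fed values was under 1 FPKM. The groups did not overlap in 4 of them, 1 higher and 3 lower in fasted tissue, while 93.4% of the genes tested did not overlap, 40.8% higher and 52.6% lower. All 6 were also past the limma threshold, an adjusted p under 0.05, as were 90.5% of the genes tested. Tubb4b was not past it under 8 of 11 alternatives and Tubb6 under 5, and the estimate for Tubb4b was -0.30 ± 0.20 with median-ratio scaling and -0.26 ± 0.20 with quantile scaling. Since the same contrast entered the choice of members, nothing is read from these counts. The median log2 difference of the members was -0.82. Under every alternative tried, each member kept the sign of its difference. Estimates ranged over 1.61 to 3.34 for Tuba8, -3.18 to -2.40 for Tuba1a, -2.26 to -1.96 for Tuba1b, -0.69 to -0.26 for Tubb4b, -1.11 to -0.66 for Tubb6 and -0.84 to -0.60 for Tubg1.

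**Figure D3:**
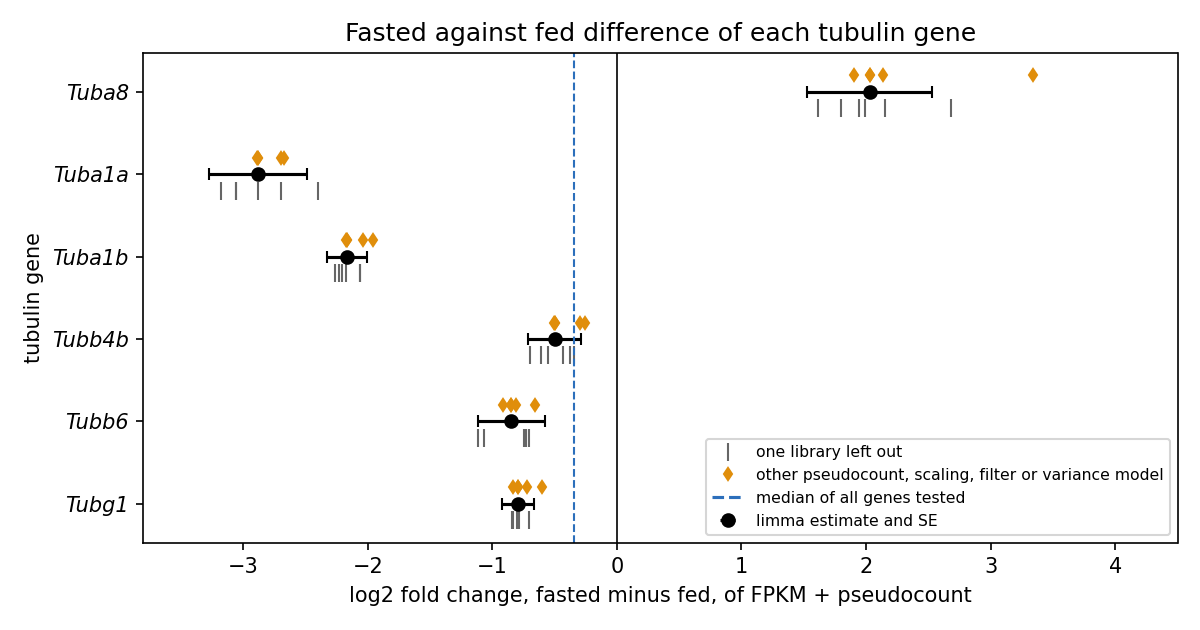
Log2 difference, fasted minus fed, of each tubulin gene: black points and bars are the limma estimate and its SE on log2(FPKM + 1), ticks leave out 1 library each, and diamonds change the pseudocount, scaling, filter or variance model. Tuba8 (2.03) lies right of 0, Tuba1a (-2.88) and Tuba1b (-2.17) lie far left, and Tubb4b (-0.50) lies near the dashed median of all genes tested (-0.34).

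The order of levels within the family differed between the groups. In fasted tissue Tuba1b came first (mean 219 FPKM), then Tubb4b (104 FPKM) and Tuba1a (103 FPKM), whose ranges overlapped, then Tubg1 (12.6 FPKM), Tubb6 (9.36 FPKM) and Tuba8 (5.54 FPKM). The ranges of Tubg1 and Tubb6, and those of Tubb6 and Tuba8, also overlapped. In fed tissue the order was Tuba1b (990.3 FPKM), Tuba1a (848 FPKM), Tubb4b (149 FPKM), Tubg1 (22.4 FPKM), Tubb6 (17.4 FPKM) and Tuba8 (0.357 FPKM), and of neighbours in that order the ranges of Tuba1b and Tuba1a alone overlapped.

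Because the alpha genes differed more than the beta genes, the balance of the tubulins held shifted. Alpha-tubulin FPKM summed over the genes held was 347, 370.03 and 268 in fasted libraries and 1355, 2606 and 1553 in fed libraries. Beta-tubulin FPKM summed over the genes held was 118, 133 and 89.7 in fasted libraries and 194, 180.2 and 124 in fed libraries. The ratio of alpha to beta FPKM held was thus 2.94, 2.78 and 2.99 in the fasted libraries, a narrow band, against a broad 6.98, 14.5 and 12.6 in the fed libraries. These sums leave out the tubulin genes not analysed here, so the ratio is not that of the whole tissue.

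Tuba8 made up 1.89%, 2.39% and 0.462% of the alpha-tubulin FPKM held in the fasted libraries, against 0.0443%, 0.0107% and 0.0122% in the fed libraries. It thus remained a small part of the alpha pool in every library. There were 36.5, 26.2 and 152 FPKM of Tuba1b for each FPKM of Tuba8 in the fasted libraries, against 1434, 4077 and 5100.1 in the fed libraries. The ratio of Tuba1a to Tuba1b was 0.424, 0.562 and 0.416 in the fasted libraries and 0.575, 1.28 and 0.603 in the fed libraries. Fed replicate 2 was the library in which Tuba1a exceeded Tuba1b, although the split of reads between them is uncertain. Tubb4b made up 23.3%, 23.2% and 22.2% of all tubulin FPKM held in the fasted libraries, against 11.1%, 5.70% and 6.56% in the fed libraries, although its own level was lower in fasted tissue. Within the beta genes its share was 91.8 ± 1.99% in fasted and 89.6 ± 0.644% in fed libraries (SD, n = 3 each).

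**Figure D4:**
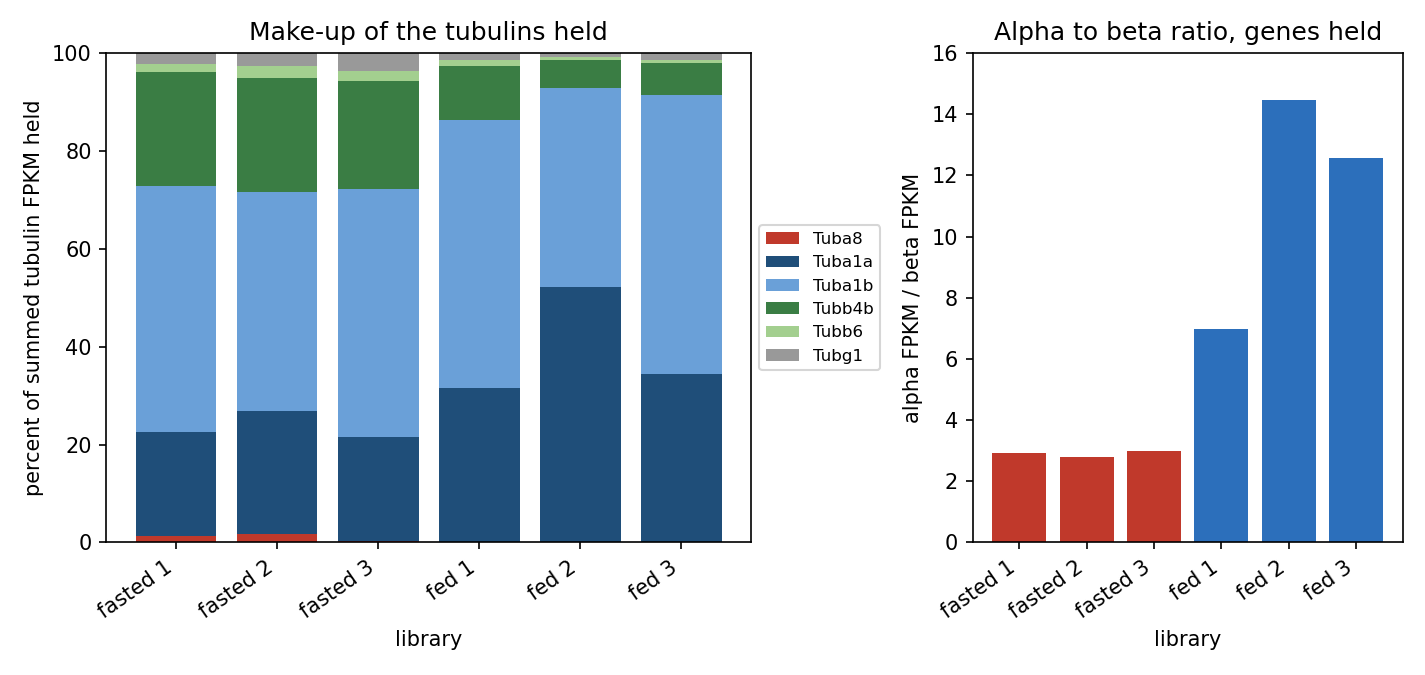
Left, the percent of summed tubulin FPKM held that each gene contributed in each library; right, the ratio of alpha to beta FPKM held. The fasted libraries are alike, with a ratio of 2.78 to 2.99, and the fed libraries vary, with a ratio of 6.98 to 14.5 and a large Tuba1a share (52.1%) in fed replicate 2.

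Sequence before the RefSeq start of the alpha genes is shown because Tuba1a and Tuba1b are neighbours that differed in the same direction and Tuba8 in the other. Of the 6 genes, 4 had an entry among RefSeq promoter sequences (GRCm38.p6). Each line gives the 250 bases before the RefSeq start, 5′ to 3′ on the gene's strand, with motif matches in capitals. Part of each window lies inside the gene as GENCODE places it. That part holds the TATA, CCAAT and GC boxes of Tuba1a and the Tuba1b GC box nearer the RefSeq start. The Tuba8 E-box and the other Tuba1b GC box lie upstream of the gene as GENCODE places it.
Tuba8, chr6:121210484-121210733, plus strand: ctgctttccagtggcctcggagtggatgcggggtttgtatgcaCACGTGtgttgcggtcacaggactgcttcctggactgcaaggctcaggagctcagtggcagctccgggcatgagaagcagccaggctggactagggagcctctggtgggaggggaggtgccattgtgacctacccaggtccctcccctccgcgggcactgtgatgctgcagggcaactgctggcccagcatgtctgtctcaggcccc
Tuba1a, chr15:98953502-98953751, minus strand: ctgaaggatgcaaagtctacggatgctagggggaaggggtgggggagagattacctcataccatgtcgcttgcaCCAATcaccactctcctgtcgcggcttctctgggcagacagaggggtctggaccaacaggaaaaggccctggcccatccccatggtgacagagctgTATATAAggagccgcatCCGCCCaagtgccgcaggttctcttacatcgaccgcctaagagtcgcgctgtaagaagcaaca
Tuba1b, chr15:98934391-98934640, minus strand: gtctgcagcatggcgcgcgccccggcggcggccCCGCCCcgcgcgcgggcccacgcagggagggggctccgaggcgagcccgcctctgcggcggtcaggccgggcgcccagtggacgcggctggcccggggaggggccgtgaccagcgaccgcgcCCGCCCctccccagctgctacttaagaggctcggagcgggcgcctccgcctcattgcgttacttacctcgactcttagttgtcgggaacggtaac
The motifs searched, on both strands, were the TATA box (TATAAA or TATATAA), the CCAAT box (CCAAT), the GC box (GGGCGG), the E-box (CACGTG) and a forkhead motif (GTAAACA). Tuba8 held 1 E-box, found in 6.02% of the 32851 promoters of the same length. Tuba1a held 1 TATA box (13.8% of promoters), 1 CCAAT box (33.8%) and 1 GC box (32.7%), and Tuba1b held 2 GC boxes. Tubb4b held 5 CCAAT boxes and 1 GC box. The forkhead motif, present in 3.17% of promoters, was in none (0) of these 4 windows. GC content was 63.6% for Tuba8, 56.8% for Tuba1a and 75.6% for Tuba1b, against a median of 52.4%.

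The genes whose values ran most like those of Tuba8 over the 6 libraries, by Pearson's r of log2(FPKM + 1), were Spin1 (r = 0.997), a reader of histone marks, Ugdh (r = 0.995), which makes UDP-glucuronate, and Apoa1 (r = 0.993), the main apolipoprotein of HDL. Apoa1 had 7.75, 7.93 and 2.49 FPKM in the fasted libraries and 1.42, 0.91 and 1.10 FPKM in the fed libraries. Its lowest fasted library was also fasted replicate 3, which follows from picking genes by their likeness to Tuba8. For Tuba1a they were Ufm1 (r = 0.997), a ubiquitin-like modifier, Dld (r = 0.996), a subunit of mitochondrial 2-oxoacid dehydrogenases, and Pm20d1 (r = 0.996), which conjugates fatty acids to amino acids. Such values are common in genes chosen for a difference between the same groups: of 2941 genes compared, 472 had r above 0.9 with Tuba8 and 784 with Tuba1a. The genes compared left out the 6 tubulins, predicted genes (Gm or Rik names) and genes with no symbol.

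Genes that act on tubulin or microtubules were more often lower than higher in fasted tissue. From 8 lists of 194 genes, 31 were measured and 29 reached the mean for testing. Of these, 16 fell (55.2%), 5 rose (17.2%) and 8 did not pass by limma with Benjamini-Hochberg adjustment over all 2999 genes, while 49.4% of all genes tested fell and 41.1% rose. The median log2 difference was -0.40, against -0.34 over all genes tested. With median-ratio scaling 9 fell and 5 rose, while over all genes 787 fell and 1237 rose, against 1482 and 1232 without it. The counts are no independent evidence of direction, since the genes in the files appear to have been picked on the libraries compared.

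Of the factors that fold tubulin, the chaperonin subunit gene Cct3 fell (-0.40 ± 0.14, adjusted p = 0.0245) and the prefoldin gene Pfdn5 rose (0.47 ± 0.15, adjusted p = 0.0176). The other 13 genes of this list were not analysed here. The fall of Cct3 was -0.20 with median-ratio scaling (adjusted p = 0.199) and -0.25 with quantile scaling (0.133), and it also missed the threshold without fasted replicate 1 (adjusted p = 0.0732) or 3 (0.0576) and without fed replicate 2 (0.0676) or 3 (0.06). The tubulin cofactor genes Tbcb (-0.70 ± 0.14) and Tbcd (-0.61 ± 0.13), whose products assemble the alpha-beta dimer, both fell (adjusted p = 0.00443 and 0.00529). Tbcb had 29.1, 29.1 and 27.9 FPKM in the fasted libraries, against 44.9, 56.3 and 42.1 FPKM in the fed libraries, with no overlap.

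Genes listed as tubulin-modifying enzymes went both ways. Ttll1 (-0.67 ± 0.14), which encodes a catalytic subunit of tubulin polyglutamylase, and Tpgs2 (-0.42 ± 0.13), a further subunit gene of that enzyme, fell. Ttll12 (-0.62 ± 0.14) fell as well, as did Agtpbp1 (-0.41 ± 0.13), a deglutamylase gene. Agbl5 (0.84 ± 0.20), which encodes a carboxypeptidase that removes branch-point glutamates, rose (adjusted p = 0.00725). It had 8.43, 5.79 and 5.16 FPKM in the fasted libraries and 3.53, 2.64 and 3.14 FPKM in the fed libraries. With median-ratio scaling Tpgs2 (adjusted p = 0.104) and Agtpbp1 (adjusted p = 0.159) missed the threshold. Tpgs2 also missed it without fasted replicate 2 (adjusted p = 0.0597) or fed replicate 3 (0.0535), and Agtpbp1 without fed replicate 3 (0.0537) and with quantile scaling (0.0587).

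In nucleation, where Tubg1 acts, 2 of 22 listed genes were measured. Haus4 (0.80 ± 0.23), a subunit of the augmin complex that starts branches on microtubules, rose (adjusted p = 0.0145). Ckap5, a microtubule polymerase gene, had a difference of -0.23 ± 0.13 that did not pass (adjusted p = 0.105) and passed with quantile scaling (adjusted p = 0.0477).

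Among stabilizing and plus-end proteins, 8 of 11 genes tested fell and 2 rose, and 1 missed the threshold, while of all genes tested 49.4% fell and 41.1% rose. The median was -0.54, against -0.34 over all genes tested. Gas2l1 (-0.98 ± 0.15), which links actin to microtubules, had the smallest p of this list (adjusted p = 0.00218). It had 16.0, 17.1 and 16.7 FPKM in the fasted libraries, against 40.9, 33.3 and 28.4 FPKM in the fed libraries, with no overlap. Map7d1 (-0.73 ± 0.17) also fell. Map1lc3a (-0.60 ± 0.12) and Map1lc3b (0.82 ± 0.17) went opposite ways, and both encode LC3 proteins that are best known from autophagosomes rather than from microtubules.

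Of the kinesin motors, Kif3b fell (-0.48 ± 0.14, adjusted p = 0.0161; 0.0673 with median-ratio scaling), while Kif5a (-0.35 ± 0.16) and Kif5b (-0.25 ± 0.13) did not pass. Kif5a passed without fed replicate 3 (adjusted p = 0.0401), with quantile scaling (0.0194) and with no variance trend (0.0452). The 4 dynein and dynactin genes tested did not pass either, with differences of -0.20 for Dync1i2, -0.27 for Pafah1b1, -0.33 for Dynll1 and -0.33 for Dctn5, of which Dctn5 passed without fasted replicate 1 (adjusted p = 0.0465). Kif1a was too low for testing, with 0.17, 0.18 and 0.13 FPKM in fasted libraries and 0.07, 0.03 and 0.01 FPKM in fed libraries. Mapt, which encodes tau, was as well, with 2.16, 0.80 and 0.91 FPKM in fasted libraries and 0.47, 0.41 and 0.51 FPKM in fed libraries.

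**Figure D5:**
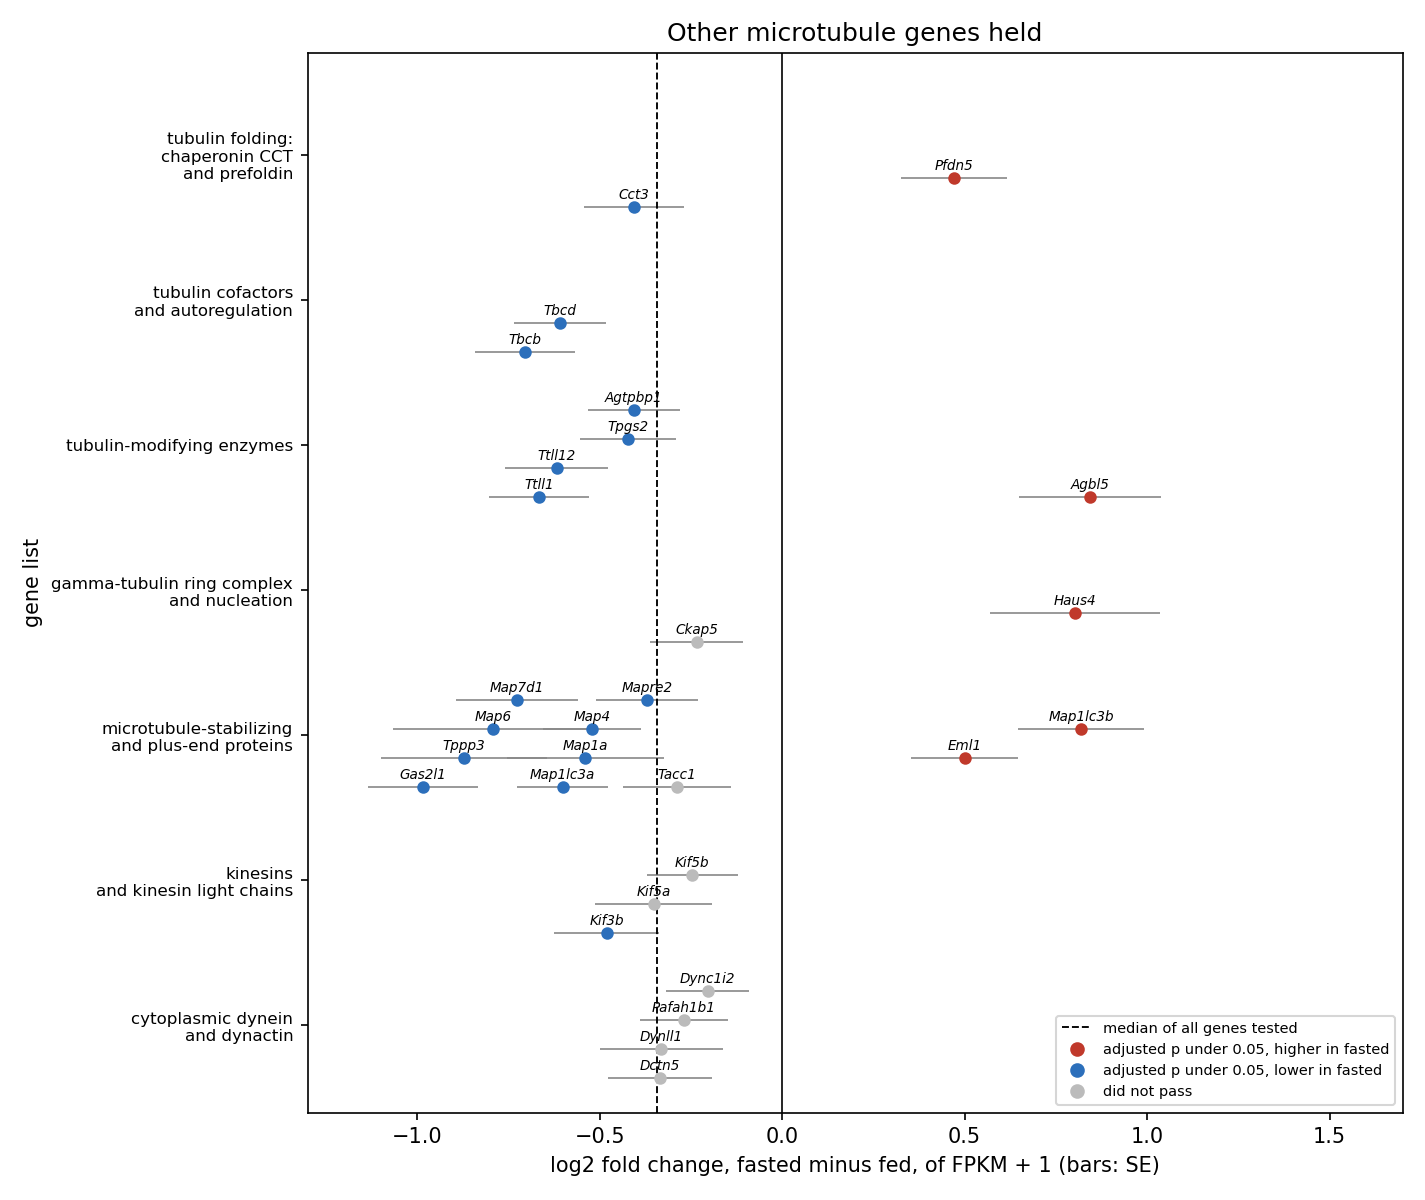
Log2 difference, fasted minus fed, of FPKM + 1 for the 29 genes tested from the microtubule lists (points, with SE bars). Red points rose, blue points fell and grey points did not pass at an adjusted p of 0.05, and the dashed line is the median of all genes tested (-0.34). All 16 falls are shallower than the -2.17 of Tuba1b.

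Other filaments gave a setting for the tubulins. Among actin genes and monomer-binding proteins, 4 of 5 tested fell and 1 rose, beside the same 49.4% and 41.1% of all genes tested. The median was -0.51. Cfl1 (-0.51 ± 0.14) and Pfn1 (-0.47 ± 0.13), for the actin-binding proteins cofilin and profilin, fell (adjusted p = 0.0115 and 0.0121; 0.0591 and 0.0706 with median-ratio scaling, and 0.0535 for Pfn1 with quantile scaling). So did Actg1 (-0.59 ± 0.23, adjusted p = 0.0384; 0.131 with median-ratio scaling). Actg1 missed the threshold without fasted replicate 1 (adjusted p = 0.0842) or 3 (0.117) and without fed replicate 2 (0.107) or 3 (0.057). Vim, the intermediate filament gene of mesenchymal cells, fell more (-1.08 ± 0.18, adjusted p = 0.00283). It had 401, 494 and 433 FPKM in the fasted libraries and 874, 1185 and 787 FPKM in the fed libraries, and fed replicate 2 was the highest fed library, as for Tuba1a and Tuba1b. Des (0.59 ± 0.15) and Synm (0.64 ± 0.19), filament genes of muscle, rose, Synm not without fed replicate 3 (adjusted p = 0.0509).

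Some smooth muscle genes were, like Tuba8, higher in fasted tissue. Actg2, the enteric smooth muscle actin gene, rose (2.11 ± 0.42, adjusted p = 0.00478), with 8.51, 7.90 and 5.21 FPKM in fasted libraries and 2.82, 0.22 and 0.39 FPKM in fed libraries. As for Tuba8, fasted replicate 3 was the lowest of its group and fed replicate 1 the highest of its group. That was not particular to these genes, since Tubb4b, whose groups overlapped, had the same lowest fasted and highest fed libraries. Fasted replicate 3 was the lowest fasted library for 4 of the 6 tubulins. Of 13 smooth muscle genes, listed after these values were seen and so given with no test, 10 were measured. Their summed FPKM was 375, 324 and 227 in the fasted libraries and 250.2, 161 and 182 in the fed libraries, so the sums overlapped. Of the 10, 7 were higher in all fasted than in all fed libraries, 2 were lower in all of them, and Myh11 overlapped, while of all genes tested 40.8% were higher and 52.6% lower without overlap. Cnn1, the calponin gene, averaged 8.90 FPKM in fasted and 1.89 FPKM in fed tissue. Tagln, for transgelin, averaged 109 FPKM in fasted and 40.9 FPKM in fed tissue. Myl9, a myosin light chain gene, averaged 101 FPKM in fasted and 50.03 FPKM in fed tissue. The 2 lower genes were Synpo2 and Mylk, which ran against the rest within the sum. Synpo2 averaged 3.66 FPKM in fasted and 12.5 FPKM in fed tissue. Mylk averaged 31.2 FPKM in fasted and 68.1 FPKM in fed tissue. The part of these genes in the level of Tuba8 was not tested. The 15 skeletal muscle genes listed likewise were not analysed here.

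Markers of the cells in this tissue differed between the groups too. Plin1, a lipid droplet gene that defines fat cells, had 286, 259.8 and 479 FPKM in the fasted libraries and 798, 731 and 694 FPKM in the fed libraries; it was thus present in every library. It and Lep were the 2 of 6 adipocyte markers measured, and both fell. The endothelial markers Pecam1 (0.94 ± 0.17) and Emcn (0.50 ± 0.12) rose, and their summed FPKM was 182 to 243 in the fasted libraries, against 112 to 129.7 in the fed libraries. Of the list for fibroblasts and adipose progenitors, 3 genes were measured. They summed to 1465 to 1981 FPKM in the fasted libraries, against 717 to 1041 FPKM in the fed libraries. Dcn (fasted and fed means 1061 and 505 FPKM) and Ly6c1 (581 and 314 FPKM) rose, and Col1a1 (47.5 and 62.2 FPKM) fell. The 3 mural cell markers summed to 38.7 to 67.7 FPKM in the fasted libraries, against 21.3 to 36.3 FPKM in the fed libraries, with rises of Pdgfrb and Myh11 and a fall of Cspg4. The call of Col1a1 was lost without any single library other than fed replicate 1 (adjusted p of 0.0516 to 0.116), with no variance trend (0.0588), and with median-ratio (-0.16, adjusted p = 0.273) and quantile scaling (-0.16, 0.235). That of Myh11 was lost without fasted replicate 1 or fed replicate 2 or 3 (0.0587 to 0.0661), and that of Cspg4 without fasted or fed replicate 2 or 3 (0.0614 to 0.0938) and with median-ratio scaling (0.0623). Itgam, the 1 macrophage marker measured, fell (-1.03 ± 0.25). Cd3e of lymphocytes had at most 0.98 FPKM and Top2a of dividing cells at most 1.78 FPKM in any library, both too low for testing. Markers of mesothelium, nerve and epididymal epithelium were not analysed here. In bulk tissue, fewer cells of a type and less RNA per cell cannot be told apart, and the part of these markers in the tubulin differences was not tested.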

How the data were processed

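Epididymal white adipose tissue of 3 fasted and 3 fed mice was profiled by bulk RNA sequencing. Trizol was used on 70 mg of tissue per mouse, per the labels' protocols. The authors deposited FPKM values, per the file headers, and RSEM with the mouse builds mm10 and GRCm38.p6 is named in the submitters' processing notes. Not given in the sources used here are the RSEM version, aligner, annotation, read length and strand setting. Values carry 2 decimals, so depth could not be recovered and no counting interval is given. Reads of genes that overlap on opposite strands may be mixed.

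Symbols and coordinates came from GENCODE M21 (GRCm38), which matched 3158 of 3162 identifiers. Expression was fitted with limma 3.58.1 in R 4.3.3 (eBayes with a variance trend) to log2(FPKM + 1). The 2999 genes averaging 1 FPKM or more were tested, with two-sided p-values, Benjamini-Hochberg adjustment over these genes and a threshold of 0.05. The adjustment does not measure a genome-wide error rate, because the genes appear to have been chosen on these libraries. The fit was tested on simulated data. Coding sequences were aligned with Biopython 1.88, and transcript stretches were matched exactly on both strands. RefSeq and GENCODE start sites differ for the alpha genes and agree for Tubb4b.

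The tubulins and gene lists were chosen with earlier results of these data known. Genes named are all tubulins, the 4 genes of each list with the smallest p (all measured genes where a list had 5 or fewer), and the 3 genes most like Tuba8 and Tuba1a. Tubd1, Mapt, Cnn1 and Myl9 were named besides these, outside that rule. One list gene and some coding sequence are not reported here, and that gene is left out of the counts over the lists. Replicate numbers are in accession order. The alternatives were another pseudocount, no filter, median-ratio and quantile scaling, no variance trend, another denominator for shares, and each library left out.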

Additional observations from a re-analysis of the deposited data

How the results depend on the processing

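No paired analysis was possible because the labels give no number or batch that links fasted with fed mice. No tubulin estimate changed sign under any alternative. The estimate was 3.34 for Tuba8 with a pseudocount of 0.1, and -1.96 for Tuba1b and -0.60 for Tubg1 with median-ratio scaling. That scaling also gave 787 genes lower in fasted tissue in place of 1482, and 9 microtubule list genes in place of 16, and it moved the median of all genes to -0.15, against -0.34. The fasted minus fed difference of the Tuba1b share of tubulin FPKM was -2.21 percentage points, 0.892 without fed replicate 3 and 10.7 within the alpha genes. With each library left out in turn it ranged over -7.29 to 0.892, so its direction is not settled. Within the beta genes alone the share difference was 2.25 for Tubb4b and -2.25 for Tubb6, where it was 15.1 and 1.14 over all tubulins, because the denominator changes. Gene by gene, the alternatives were followed only for the 43 list genes picked for naming. Of these, 36 were called, 11 of which lost the call under at least 1 alternative, and none (0) of the 43 changed sign. In the longer lists the genes picked were those with the smallest p, so these counts do not cover every list gene called. Library depth is unknown, so the precision of the low Tuba8 values cannot be stated.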
